A study of Mus musculus with 8 samples.

Results

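The genes described here encode the erythroid transcription factor complex, the nuclear proteins that assemble around GATA1, KLF1 and TAL1 on the control regions of red cell genes. They were listed by name, with earlier results of these data known: Gata1, Klf1, Tal1, Nfe2, Gfi1b, Zfpm1, Lmo2, Ldb1, Lyl1 and Cbfa2t3. All 10 were found among the 24454 gene rows of the count table, and all 10 were among the 12136 genes with enough counts to be tested.

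RNA came from cells sorted out of the mouse yolk sac at E11.5, the membrane around the embryo that makes its early blood and vessels. Every embryo was on the C57BL/6 background and carried 1 allele of green fluorescent protein (GFP) at the locus of the red cell microRNAs miR-144 and miR-451, so a reporter and a changed microRNA locus are shared by all groups. The gates used that reporter and VE-Cadherin, the endothelial junction protein encoded by Cdh5. Endothelial libraries (VE-Cadherin positive, GFP negative; replicates 1, 2 and 3) and erythroid libraries (VE-Cadherin negative, GFP positive; replicates 4, 5 and 6) each held 25 cells, and the double positive libraries (replicates 7 and 8) each held 24 cells positive for both. The labels do not say whether pools came from separate embryos, so p-values measure the spread between pools, which may be technical.

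GATA1 is a zinc finger protein that binds GATA sites and drives red cell and platelet lineages. TAL1, or its close relative LYL1, binds DNA as a helix-loop-helix dimer next to GATA1, and the bridging proteins LMO2 and LDB1 hold them together and bring distant enhancers to promoters. KLF1 binds CACCC boxes such as those of the globin genes, NFE2 binds the globin locus control region with a small MAF partner, FOG1 (Zfpm1) is the GATA1 cofactor, and GFI1B and ETO2 (Cbfa2t3) recruit repressors.

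Promoter sequences were read for these genes because many of the factors are known to act on each other's genes. In the RefSeq table of GRCm38.p6, 8 of the 10 genes had at least 1 window of 250 bases before to 50 bases after a start, 12 windows in all, and Nfe2 and Lmo2 had none. Letters were searched on both strands. The GATA core searched was GATAA. For KLF1 the short box CACCC was searched, and the longer KLF1-type box CCNCNCCC, which can overlap it. The E-box of helix-loop-helix factors was searched as CANNTG. The last search was for a joint motif, in which CTG is followed, after 8 or 9 bases of any kind, by the letters GATA, and which can overlap the GATA core. This spacing is the one known for the TAL1 and GATA1 complex, and 4 genes held it: Klf1, Tal1, Gfi1b and Cbfa2t3. The 5 stretches printed are those 4 and, for contrast, Lyl1, whose window held no GATAA. Each runs 5′ to 3′ along its gene's strand for 190 bases, from -250 to -61 relative to the start, and capitals mark the GATA core (read as TTATC when it lies on the other strand) and both fixed parts of the joint motif.
Klf1 (chr8:84901732-84901921, plus strand): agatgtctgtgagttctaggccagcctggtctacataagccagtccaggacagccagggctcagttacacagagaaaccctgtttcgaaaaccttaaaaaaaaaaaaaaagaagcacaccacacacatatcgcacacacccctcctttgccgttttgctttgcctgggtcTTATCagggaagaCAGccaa
Tal1 (chr4:115056176-115056365, plus strand): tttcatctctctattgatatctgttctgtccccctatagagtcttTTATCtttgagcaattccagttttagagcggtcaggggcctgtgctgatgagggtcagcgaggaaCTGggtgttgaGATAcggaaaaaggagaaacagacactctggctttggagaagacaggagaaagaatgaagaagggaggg
Gfi1b (chr2:28622043-28622232, minus strand): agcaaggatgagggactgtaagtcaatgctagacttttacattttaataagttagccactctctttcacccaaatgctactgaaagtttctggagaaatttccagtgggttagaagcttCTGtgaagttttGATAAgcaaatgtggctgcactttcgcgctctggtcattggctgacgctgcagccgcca
Cbfa2t3 (chr8:122699170-122699359, minus strand): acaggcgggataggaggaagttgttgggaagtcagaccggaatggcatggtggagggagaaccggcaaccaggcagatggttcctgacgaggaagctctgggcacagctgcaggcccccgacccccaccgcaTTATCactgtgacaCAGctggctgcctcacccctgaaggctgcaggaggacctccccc
Lyl1 (chr8:84701207-84701396, plus strand): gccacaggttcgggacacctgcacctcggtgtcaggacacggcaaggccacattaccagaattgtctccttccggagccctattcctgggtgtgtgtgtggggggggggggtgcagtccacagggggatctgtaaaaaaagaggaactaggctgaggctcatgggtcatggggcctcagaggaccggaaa

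In Klf1 the GATAA letters stood at -80 to -76 and the joint motif at -79 to -65, both on the opposite strand. In Gfi1b the joint motif, with 9 bases between its parts, stood at -131 to -116 and shared its GATA with a GATAA at -119 to -115. The Tal1 window held GATAA at -205 to -201 and a separate joint motif at -140 to -126. Cbfa2t3 carried the same arrangement as Klf1 with 9 bases between, at -117 to -102. The Gata1 window held 2 CACCC and 3 KLF1-type matches, and Lyl1 held 8 KLF1-type matches: 5 overlapping ones from -151 to -140, 1 at -50 to -43, and 2 overlapping ones from -33 to -24. Over all 32851 promoter windows of that length, GATAA was present in 25.4%, the joint motif with 8 bases between in 2.28% and with 9 bases in 2.51%, CACCC in 57.5%, the KLF1-type box in 49.5% and the E-box in 72.3%. Among the 12 windows of these genes the counts were 5, 2, 2, 11, 10 and 8. These matches describe letters in a window and not bound sites. They did not sort the genes by level: Klf1 and Cbfa2t3, which both hold the joint motif, stood at opposite ends of the erythroid order given later.

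Total counts ran from 3723128 to 7618444 per library. Embryonic globins took 54.5% to 56.5% of erythroid counts and 8.86% and 14.0% of double positive counts, so normalised read counts (CPM) were scaled with factors that allow for a few dominant genes. All 10 endothelial markers fixed for the check were present in endothelial and double positive libraries, and in erythroid libraries 9 of the 10, Cdh5 included, were at 0 (summed CPM 1.96 to 9.09). Endothelial libraries also held all 10 macrophage markers, at a summed 1347, 3425 and 1464 CPM, against 0 in erythroid libraries. In double positive libraries the sums were 88.7 and 158 CPM, of which Mrc1 made 66.1 and 91.5. Only 3 of the 10 markers had a count in replicate 7. Double positive libraries held all 10 markers of visceral endoderm, the yolk sac's outer epithelium, at 89690 and 89790 CPM, against 10.1 to 46.0 elsewhere. A pool of cells gives 1 library, so fewer cells of a type and less RNA per cell cannot be told apart.

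**Figure D1:**
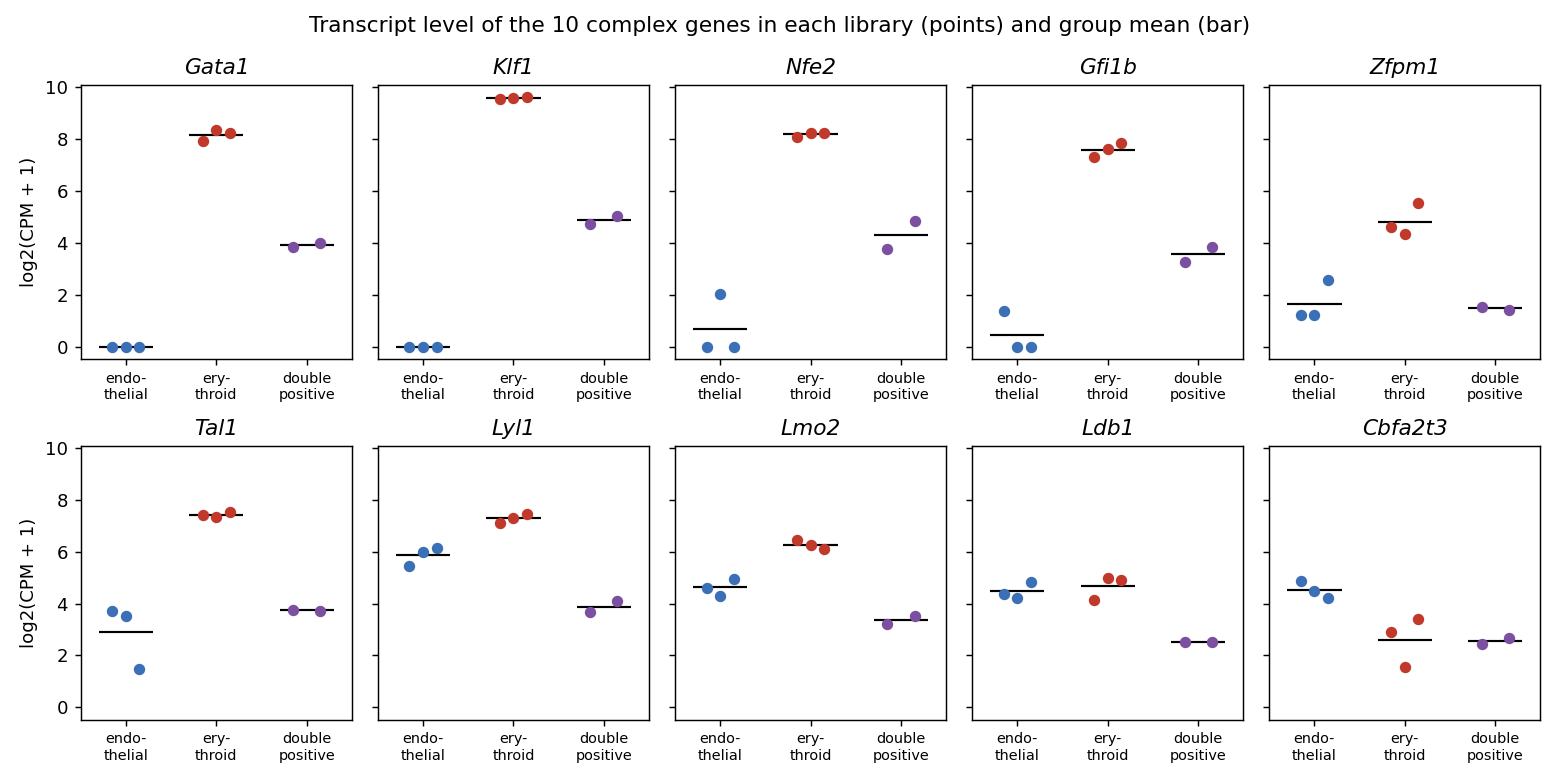
Normalised read count (CPM) of each of the 10 genes in each of the 8 libraries, plotted as log2(CPM + 1); points are libraries and bars are group means. Gata1 and Klf1 sit at 0 in all 3 endothelial libraries and are highest in erythroid ones, and Cbfa2t3 is the gene whose endothelial libraries are highest.

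Erythroid libraries were set against endothelial ones to ask how the complex differs between red cells and vessel lining. By edgeR's quasi-likelihood test with Benjamini-Hochberg adjustment over all genes, 8 of the 10 genes were higher in erythroid libraries, beside 14.4% of all genes tested, and 1, Cbfa2t3, was lower, beside 26.6%. Over all genes 1745 were higher and 3232 lower, and by library size alone 420 and 7270, with 6 of the 10 complex genes higher. The median log2 difference of the 10 was 3.96, against -0.36 over all genes, and the libraries of both groups did not overlap for 9 genes, beside 50.8% of all genes tested. Gata1, Klf1, Nfe2 and Gfi1b had no counts in at least 2 of the 3 endothelial libraries and between 158 and 776 CPM in erythroid ones. Tal1, Zfpm1, Lyl1, Lmo2, Ldb1 and Cbfa2t3 were present in every library of both populations.

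Gata1, the founding GATA factor of the red cell lineage (chrX:7959260-7978071, minus strand, GRCm38), had 0 counts in each endothelial library and 240, 327 and 296 CPM in the erythroid ones (288 ± 44.2, SD, n = 3). Double positive libraries had 13.2 and 14.9 CPM (14.0 ± 1.19, SD, n = 2), which rested on 69 and 73 counts. The groups did not overlap in any comparison, and double positive libraries lay between the others. Taking 3 counts over the endothelial group as the floor, Gata1 was at least 1909-fold higher in erythroid (adjusted p 1.86e-06, edgeR) and at least 93.0-fold higher in double positive libraries (adjusted p 5.49e-05, edgeR). Floors and counts carry counting error only, and the reads had no molecular identifiers.

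Klf1, the activator of globin and red cell membrane genes (chr8:84901928-84905291, plus strand), followed the same order at a higher level. It was at 0 in every endothelial library, at 749, 765 and 776 CPM in erythroid libraries (764 ± 13.9, SD, n = 3) and at 25.6 and 32.0 CPM in double positive libraries (28.8 ± 4.51, SD, n = 2). No libraries of different groups overlapped, and the erythroid replicates were closer together than for the other genes of the complex relative to their mean. The difference from endothelial libraries was at least 5063-fold in erythroid (adjusted p 4.11e-07, edgeR) and at least 191-fold in double positive libraries (adjusted p 1.03e-05, edgeR).

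Nfe2 (chr15:103248212-103258403, minus strand), which pairs with small MAF proteins, had 272, 298 and 301 CPM in erythroid libraries (290 ± 16.1, SD, n = 3) and 12.6 and 27.7 CPM in double positive ones. Endothelial replicates 1 and 3 were at 0, and replicate 2 had 3.10 CPM. Among endothelial libraries, replicate 2 also had the highest sums of macrophage markers (3425 CPM) and of megakaryocyte markers (1000 CPM). The part of either in its Nfe2 level was not tested. The double positive replicates were wide apart and still lay above all endothelial and under all erythroid libraries. The log2 difference was 8.18 (SE 0.93, adjusted p 1.82e-04, edgeR) for erythroid against endothelial and 4.33 (SE 0.93, adjusted p 0.0120) for double positive against endothelial libraries. The latter did not pass with DESeq2 (adjusted p 0.0829), with the 2 populations alone (0.0650) or without replicate 8 (0.0848).

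Gfi1b (chr2:28609450-28621982, minus strand), a repressor that recruits the LSD1 demethylase, had 158, 192 and 232 CPM in erythroid libraries (194 ± 37.2, SD, n = 3). Double positive libraries had 8.60 and 13.5 CPM, and 1 of 3 endothelial libraries had 1.59 CPM while the others had 0. The groups did not overlap. Its log2 difference from endothelial libraries was 8.31 (SE 0.79, adjusted p 6.31e-05, edgeR) in erythroid and 4.18 (SE 0.81, adjusted p 0.00787) in double positive libraries, and the second did not pass in a fit of the 2 populations alone (adjusted p 0.0705).

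Zfpm1 (chr8:122282141-122337251, plus strand), the GATA1 cofactor FOG1, varied between erythroid libraries, at 23.3, 19.0 and 45.0 CPM (29.1 ± 13.9, SD, n = 3). Endothelial libraries had 1.32, 1.30 and 4.85 CPM and double positive libraries 1.91 and 1.63. Erythroid libraries stood above all others, and double positive values fell inside the endothelial range. The erythroid difference from endothelial libraries was 3.54 on the log2 scale (SE 0.71, adjusted p 0.00368, edgeR).

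Tal1 (chr4:115056426-115071755, plus strand), the helix-loop-helix factor that also acts in endothelial and stem cell programs, was found in every library. It had 12.2, 10.4 and 1.78 CPM in endothelial (8.12 ± 5.56, SD, n = 3), 169, 160 and 183 CPM in erythroid and 12.6 and 12.02 CPM in double positive libraries. Double positive values overlapped the endothelial range, and erythroid ones stood far above both. The log2 difference of erythroid from endothelial libraries was 4.38 (SE 0.55, adjusted p 3.12e-04, edgeR).

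Lyl1 (chr8:84701457-84704715, plus strand), the relative of TAL1 that can take its place, had the highest endothelial level of the 10 genes per kilobase of exon, as given later. Its values were 42.7, 61.9 and 69.2 CPM in endothelial (57.9 ± 13.7, SD, n = 3), 135, 156 and 174 CPM in erythroid and 11.7 and 15.9 CPM in double positive libraries. The groups did not overlap, with the double positive libraries lowest. The erythroid difference from endothelial libraries was 1.42 (SE 0.24, adjusted p 0.00137, edgeR), and it was -0.12 (adjusted p 0.679) when libraries were scaled by size alone, a scaling that moved the median of all genes from -0.36 to -1.90. Exons of Lyl1 overlap those of Nfix on the other strand, and as the strand setting of the counting is not given in the sources used here, their reads cannot be told apart; Nfix was at 12.4 to 26.6 CPM in erythroid and 0 to 3.06 CPM elsewhere.

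Lmo2 (chr2:103957986-103981878, plus strand), the LIM-only bridge between TAL1 and GATA1, had 23.4, 18.7 and 29.9 CPM in endothelial libraries (24.0 ± 5.60, SD, n = 3). Erythroid libraries had 86.9, 75.2 and 67.2 CPM and double positive libraries 8.22 and 10.6. As for Lyl1, the groups were apart and the double positive libraries lowest. The erythroid difference was 1.67 (SE 0.27, adjusted p 0.00125, edgeR) and 0.12 (adjusted p 0.737) by library size alone.

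Ldb1 (chr19:46031570-46045214, minus strand), whose protein self-associates to loop enhancers to promoters, had 19.8, 17.4 and 27.8 CPM in endothelial and 16.6, 30.5 and 29.0 CPM in erythroid libraries. These ranges overlapped, and the log2 difference of 0.22 (SE 0.39) did not pass (adjusted p 0.707, edgeR); by library size alone it was -1.32 (adjusted p 0.0192). Double positive libraries had 4.78 and 4.69 CPM, under every other library. Its exons overlap Pprc1 on the other strand, which was at 7.11 to 34.7 CPM over the 8 libraries.

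Cbfa2t3 (chr8:122625141-122699109, minus strand), the ETO-family corepressor of the TAL1 complex, was the exception. Endothelial libraries had 28.6, 21.5 and 17.8 CPM (22.6 ± 5.48, SD, n = 3), erythroid libraries 6.53, 1.90 and 9.46 CPM (5.96 ± 3.81, SD, n = 3) and double positive libraries 4.40 and 5.30 CPM. Endothelial values stood above all others, and double positive values fell inside the erythroid range. The erythroid difference of -1.92 (SE 0.61, adjusted p 0.0332, edgeR) did not pass when any 1 of replicates 1, 2, 3, 4, 7 and 8 was left out, with adjusted p from 0.0503 to 0.102. Macrophage markers, listed earlier, were also highest in the endothelial libraries, and so were megakaryocyte markers, which summed to at least 644 CPM in each, against 38.5 to 53.6 CPM in erythroid libraries and 10.3 and 77.2 CPM in the double positive ones. The part of either in the endothelial levels of Cbfa2t3, Lyl1, Lmo2 and Tal1 was not tested.

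**Figure D2:**
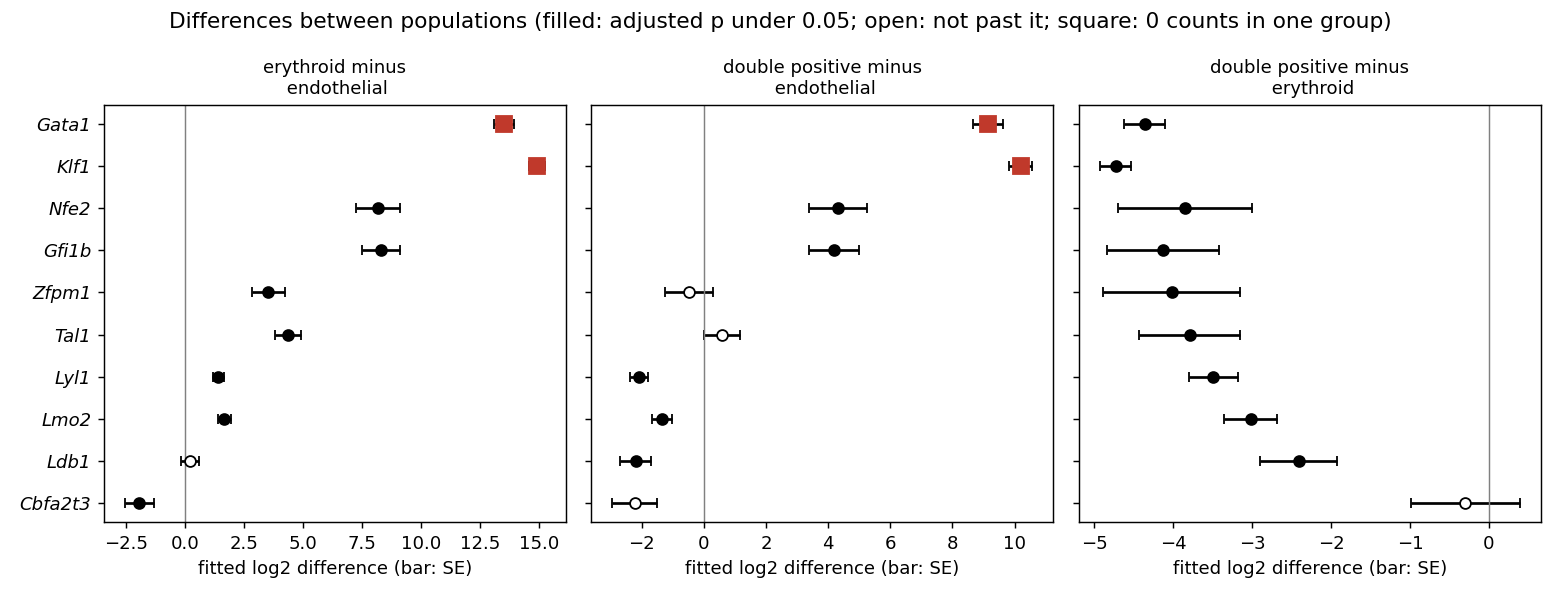
Fitted log2 difference of each gene (points) with its SE (bars) in the 3 comparisons, filled where the adjusted p is under 0.05 and square where one group had 0 counts, so that the size is no bound. In the double positive minus erythroid panel all 10 points lie under 0 and 9 are filled.

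Double positive libraries were then set against erythroid ones. By the same test 9 of the 10 genes were lower in double positive libraries, beside 10.6% of all genes tested, while 31.5% of all genes were higher. Over all genes 3820 were higher and 1283 lower, and by library size alone 5760 and 473, with 9 complex genes lower. The median difference of the 10 was -3.82, against 0.71 over all genes. The drop was largest for Klf1 at -4.73 (SE 0.20, adjusted p 1.08e-05) and Gata1 at -4.36 (SE 0.26, adjusted p 3.98e-05), that is 26.5-fold and 20.5-fold lower. Gfi1b (-4.13, SE 0.71, adjusted p 0.00203), Zfpm1 (-4.02, SE 0.87, adjusted p 0.00616), Nfe2 (-3.85, SE 0.85, adjusted p 0.00674) and Tal1 (-3.79, SE 0.64, adjusted p 0.00177) came next. The smaller drops were those of Lyl1 (-3.49, SE 0.31), Lmo2 (-3.02, SE 0.34) and Ldb1 (-2.41, SE 0.49), with adjusted p of 5.93e-05, 2.10e-04 and 0.00456. Cbfa2t3 did not pass (-0.30, SE 0.69, adjusted p 0.763), and its sign turned by library size alone (0.60) and without replicate 6 (0.19). Nfe2 did not pass with DESeq2 (adjusted p 0.0773) or without replicate 7 (0.0637), nor did Zfpm1 without replicate 7 (0.0512) or 8 (0.0586).

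Against endothelial libraries the double positive pools divided the genes. The 4 factors at or near 0 in endothelial libraries, Gata1, Klf1, Nfe2 and Gfi1b, were higher, beside 14.6% of all genes, and the 3 genes Lyl1, Lmo2 and Ldb1 were lower, beside 6.92%. Over all genes 1776 were higher and 840 lower, and by library size alone 1118 and 1901, with 4 complex genes higher and 4 lower. Lyl1 fell by 2.07 on the log2 scale (SE 0.29, adjusted p 0.00154, edgeR), Lmo2 by 1.35 (SE 0.32, adjusted p 0.0186) and Ldb1 by 2.19 (SE 0.49, adjusted p 0.0138). The calls of Lmo2 and Ldb1 did not hold without replicate 7 (adjusted p 0.170 and 0.114) or replicate 8 (0.0847 and 0.116), and Lmo2 did not pass with limma-voom (0.0635). Tal1 (0.59, SE 0.57, adjusted p 0.540, and -0.05 by library size alone) and Zfpm1 (-0.48, SE 0.78, adjusted p 0.736, and 0.41 without replicate 3) did not pass. For Cbfa2t3 the difference was -2.22 (SE 0.72) with an adjusted p of 0.0575, which passed in 7 of 17 alternatives. Lyl1, Lmo2 and Ldb1 were thus lower in double positive libraries than in both other populations, which holds for 1.6% of all genes tested; without replicate 7 or without replicate 8 it was Lyl1 alone, beside 0.335% and 0.381% of all genes, and with limma-voom Lyl1 and Ldb1, beside 1.1%. The visceral endoderm signal of the double positive libraries, 89690 and 89790 CPM over its 10 markers, moves with all of these differences, and its part was not tested.

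To read the complex against amounts of red cell and endothelial RNA, counts were divided within each library, a calculation added after the values were seen. Per 100000 embryonic globin counts, Gata1 stood at 16.8 and 10.9 in double positive and 23.9, 33.3 and 31.5 in erythroid libraries, and Klf1 at 32.6 and 23.4 against 74.7, 77.8 and 82.6. Neither overlapped, and the erythroid means were 2.14 and 2.80 times as high. The ratio of means was 1.92 for Gfi1b, 1.64 for Nfe2 and 1.41 for Tal1, also without overlap, and 1.66 for Zfpm1 with overlap. For Tal1 the groups nearly met, at 16.07 in double positive replicate 7 and 16.23 in the lowest erythroid library. For comparison, 7 other red cell transcripts ran from 1.42 (Mir144), 1.65 (Rhag) and 1.77 (Hemgn) through 2.20 (Epor) and 2.29 (Alas2) to 3.14 (Slc4a1) and 3.52 (Epb42). Mir144 lies at the locus that carries the GFP of the gates, so it is not independent of the sort. The ratios of Gata1 and Klf1 lay inside the range with or without Mir144. Lmo2 and Lyl1 per globin overlapped between the groups, with erythroid means 0.859 and 1.21 times the double positive ones. Ldb1 was 1.82 times as high in double positive libraries per globin, and Cbfa2t3 7.68 times (5.60 and 3.87 against 0.651, 0.194 and 1.01). Endothelial libraries held both genes with globins at 0.00404% of counts or less, so endothelial RNA in a pool can raise these ratios. Its part was not tested. The smallest exact two-sided permutation p that 3 against 2 libraries allow is 0.1, or 0.131 adjusted over 17 genes, so none of these could pass.

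Per 100 Cdh5 counts the picture in double positive and endothelial libraries differed by gene. Cdh5 encodes the VE-Cadherin of the gates, so this denominator is not independent of the sort. Its log2 difference in double positive against endothelial libraries was -2.03, beside a median of -2.82 for the 10 endothelial markers. Lyl1 was at 25.4 and 28.4 in double positive against 18.3, 35.9 and 31.4 in endothelial libraries, Ldb1 at 10.4 and 8.36 against 8.50, 10.1 and 12.6, and Cbfa2t3 at 9.58 and 9.46 against 12.2, 12.5 and 8.08. All 3 overlapped, and with the sum of 10 endothelial markers as the denominator all 3 were higher in double positive libraries (log2 ratios 0.84, 0.80 and 0.74). Tal1 was higher in double positive libraries per Cdh5 count, at 27.5 and 21.5 against 5.21, 6.04 and 0.808, and so was Lmo2, at 17.9 and 18.9 against 10.03, 10.9 and 13.6, without overlap in either. Erythroid libraries held all of these genes (Tal1 at a mean of 170.5 and Lmo2 at 76.4 CPM) with 0 Cdh5 counts. Red cell RNA in a pool can therefore raise these ratios, which are not levels per endothelial cell. Its part was not tested. Exact permutation p cannot go under 0.1 here either.

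**Figure D3:**
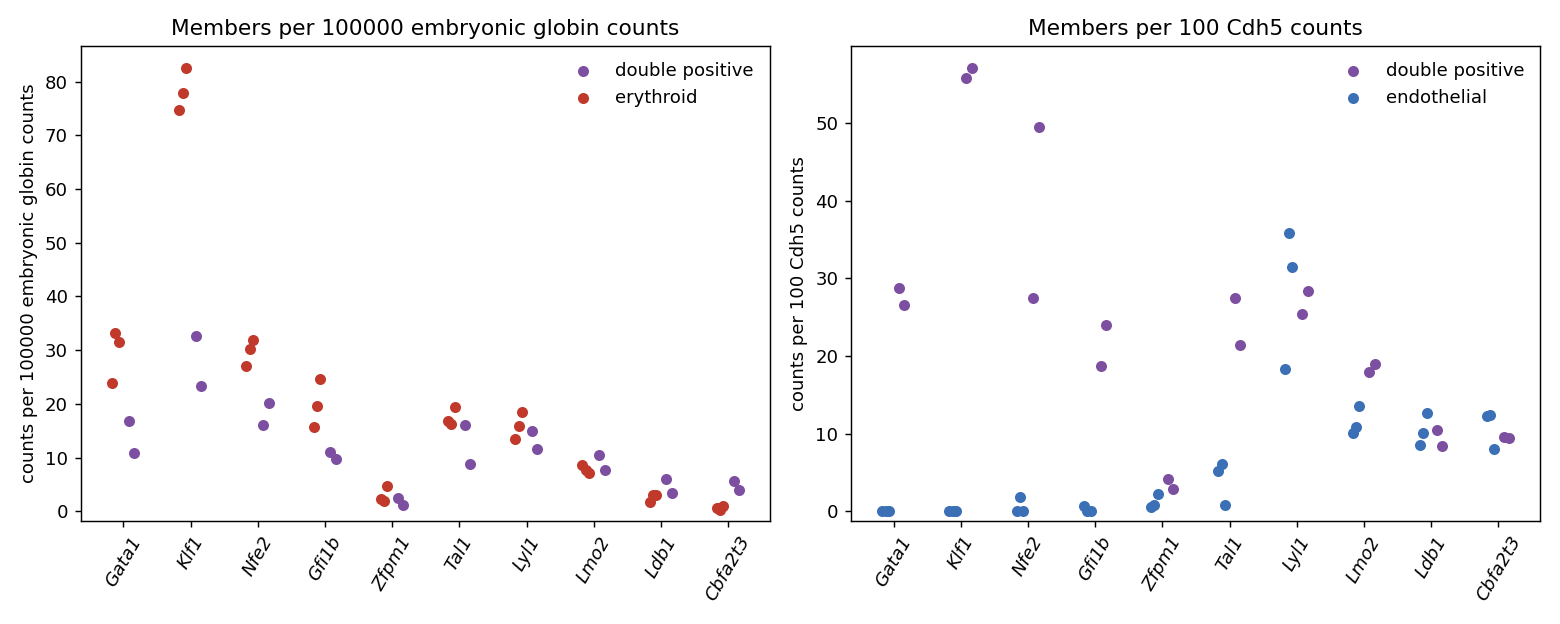
Counts of each gene per 100000 embryonic globin counts in erythroid and double positive libraries, and per 100 Cdh5 counts in endothelial and double positive libraries, 1 point per library. Gata1 and Klf1 are lower in double positive libraries per globin count, and Lyl1, Ldb1 and Cbfa2t3 overlap with endothelial libraries per Cdh5 count.

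Set per kilobase of exon (CPM per kb, a level), the order of the genes differed between populations. The length of a gene counts all its annotated exons, whichever transcript the cells make. In CPM, endothelial values of Lmo2 (18.7 to 29.9), Ldb1 (17.4 to 27.8) and Cbfa2t3 (17.8 to 28.6) overlapped. The endothelial order of these genes per kb thus rests on their lengths of 2166, 4606 and 8373 bases. In endothelial libraries Lyl1 led at 32.2 ± 7.59 (SD, n = 3), followed by Lmo2 at 11.1 ± 2.59 and Ldb1 at 4.71 ± 1.18, each apart from the next over its replicates. Cbfa2t3 followed at 2.70 ± 0.654 and Tal1 at 1.86 ± 1.27, whose ranges overlapped, then Zfpm1 at 0.711, Nfe2 at 0.345 and Gfi1b at 0.289, also overlapping. In erythroid libraries Klf1 led at 499 ± 9.07, apart from Gata1 at 118 ± 18.1, Gfi1b at 106 ± 20.3, Nfe2 at 97.1 ± 5.39 and Lyl1 at 86.1 ± 10.8, which overlapped with their neighbours. Tal1 at 38.9 ± 2.68 and Lmo2 at 35.3 ± 4.59 overlapped as well, Zfpm1 (8.31 ± 3.97) and Ldb1 (5.50 ± 1.66) overlapped each other, and Cbfa2t3 was last at 0.712 ± 0.455. In double positive libraries Klf1 again led at 18.8 ± 2.95 (SD, n = 2), followed by Lyl1 (7.65 ± 1.66), Nfe2 (6.75 ± 3.57), Gfi1b (6.03 ± 1.87) and Gata1 (5.76 ± 0.490). Klf1 (16.7 to 20.9) stood apart from Lyl1 (6.48 to 8.83). Among Lyl1, Nfe2, Gfi1b and Gata1, neighbours in the order overlapped, though Lyl1 and Gata1 did not overlap each other. Lmo2 (4.34 ± 0.776) overlapped Nfe2 and Gfi1b but not Gata1, and was followed, without overlap, by Tal1 (2.81 ± 0.0956) and Ldb1 (1.03 ± 0.0140). Cbfa2t3 (0.579 ± 0.0762) and Zfpm1 (0.506 ± 0.0568) overlapped at the foot. Ldb1 and Lmo2 bridge the complex, and in erythroid libraries Ldb1 stood at a lower level per kb than Gata1 and Tal1.

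Most of these genes have a relative that does the same kind of work in other lineages, and the ratio of the pair was taken within each library. Where both genes have counts, it does not depend on scaling between libraries. Where one has 0 counts, the ratio is set by the other gene's count and the 1 added, moves with depth, and is no bound. Only its sign and its order between populations are then read, not its size. This holds for Gata2, Klf2, Ldb2 and Zfpm2 in erythroid and for Gata1 and Klf1 in endothelial libraries. It also holds for Gfi1 outside endothelial replicate 1 and for Nfe2 in endothelial replicates 1 and 3. In endothelial replicates 2 and 3, Gfi1b and Gfi1 were both at 0, and the 1 added alone sets their ratio. Of 14 relatives listed, 11 were tested. In erythroid against endothelial libraries 5 were lower, or 45.5% beside 26.6% of all genes, and 1 was higher, or 9.09% beside 14.4%. Their median difference was -1.85 against -0.36 over all genes. The lower ones were Gata2, the GATA factor of stem and endothelial cells, Ldb2, Klf2, Klf4 and Zfpm2, and the higher one was Runx1t1, an ETO-family relative of Cbfa2t3. Double positive libraries were lower than endothelial ones in 2, Ldb2 and Klf2, or 18.2% beside 6.92% of all genes. Against erythroid ones 5 were higher, or 45.5% beside 31.5%, and 1, Runx1t1, was lower, or 9.09% beside 10.6%. These comparisons share libraries, so their calls are not independent.

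Gata2 had 6.74, 8.80 and 24.9 CPM in endothelial, 0 in every erythroid and 2.29 and 4.89 CPM in double positive libraries, so it was at least 47.2-fold lower in erythroid than in endothelial libraries (adjusted p 0.00239, edgeR). The log2 ratio of Gata1 to Gata2 counts, with 1 added to each, was -5.70, -5.78 and -7.28 in endothelial, 10.01, 10.01 and 9.83 in erythroid libraries and 2.43 and 1.57 in the double positive ones. Endothelial libraries thus held Gata2 without Gata1, erythroid libraries Gata1 without Gata2, and double positive libraries both.

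Ldb2, the other LIM-binding bridge protein, had 208, 172 and 226 CPM in endothelial, 0 in erythroid and 35.2 and 41.6 CPM in double positive libraries. The log2 ratio of Ldb1 to Ldb2 was -3.38, -3.29 and -3.02 in endothelial, 6.17, 6.60 and 6.49 in erythroid libraries and -2.83 and -3.09 in the double positive ones. Here the double positive libraries overlapped the endothelial ones, whereas for Gata1 and Klf1 they lay between the populations. Klf1 to Klf2, the shear-responsive factor of endothelium, ran at -8.58, -8.41 and -8.45 in endothelial, 11.65, 11.24 and 11.22 in erythroid libraries and 0.79 and 1.40 in the double positive ones.

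For Tal1 to Lyl1 the log2 ratio was -1.80, -2.55 and -5.16 in endothelial, 0.32, 0.04 and 0.07 in erythroid libraries and 0.11 and -0.40 in the double positive ones. Double positive and erythroid ratios overlapped, and all endothelial ratios were lower. The difference of mean log2 ratio was 3.31 for erythroid minus endothelial libraries (exact two-sided permutation p 0.1, adjusted 0.135 over 27 tests) and -0.29 for double positive minus erythroid (exact p 0.4, adjusted 0.432). Zfpm1 to Zfpm2 averaged -2.17 ± 1.73 in endothelial, 6.57 ± 0.60 in erythroid and -1.27 ± 0.79 in double positive libraries, so double positive libraries overlapped endothelial ones, as for Ldb1.

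Nfe2l2, the stress-response relative of Nfe2, did not pass in any comparison. The log2 ratio of Nfe2 to Nfe2l2 averaged -7.05 ± 2.56 in endothelial, 2.02 ± 0.53 in erythroid and -2.06 ± 0.68 in double positive libraries. The size of the endothelial average is not read, as Nfe2 was at 0 in replicates 1 and 3. Gfi1 had 1.06 CPM in 1 endothelial library and 0 in the rest. Gfi1b to Gfi1 averaged 0.18 ± 0.31, 9.37 ± 0.12 and 5.79 ± 0.38, sizes that are likewise not read. Lmo2 to Lmo4 averaged 1.94 ± 0.49, 3.37 ± 0.69 and 0.26 ± 0.86, and Cbfa2t3 to Cbfa2t2 1.27 ± 1.39, -1.91 ± 1.28 and -1.24 ± 1.16. Runx1t1 rose where Cbfa2t3 fell: it had 1.85, 0.489 and 5.17 CPM in endothelial, 80.9, 71.7 and 94.9 in erythroid libraries and 4.78 and 11.6 in the double positive ones, a log2 difference of 5.04 (SE 0.71, adjusted p 5.67e-04, edgeR) for erythroid minus endothelial. With 3 libraries against 3 or 2, the exact test of a ratio cannot go under 0.1, and no ratio passed.

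**Figure D4:**
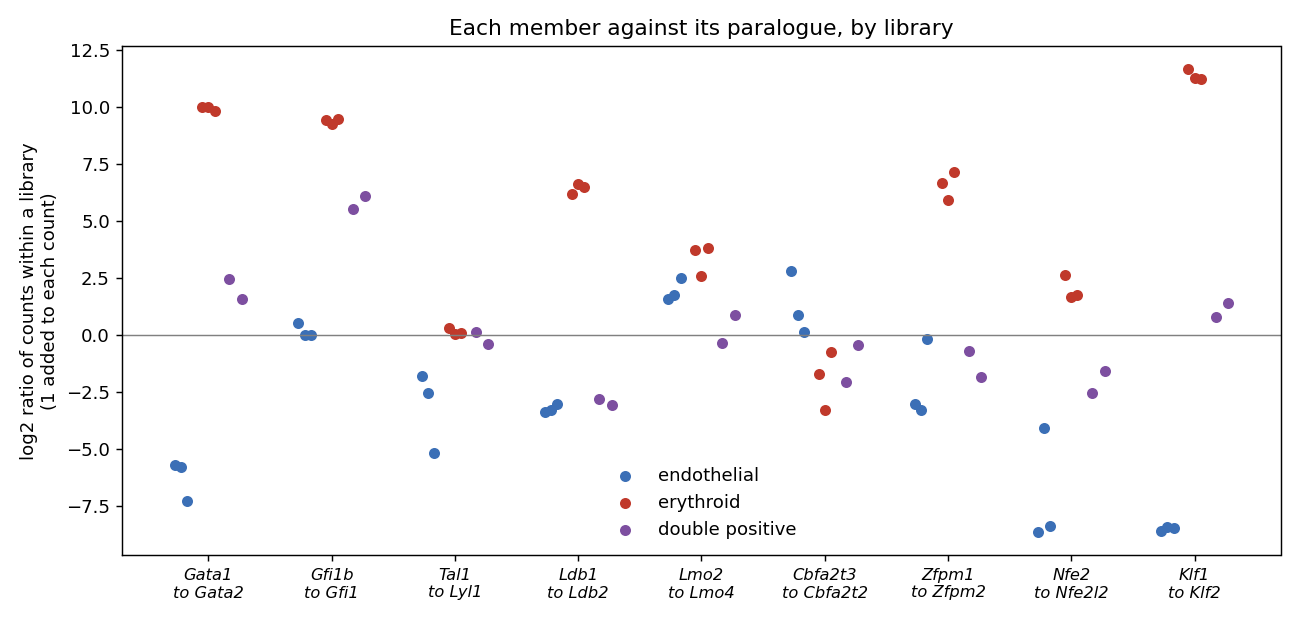
Log2 ratio of counts of each gene to its relative in each library, with 1 added to each count. Points are libraries. Double positive points lie between the populations for Gata1 to Gata2 and Klf1 to Klf2, and overlap the endothelial points for Ldb1 to Ldb2 and Zfpm1 to Zfpm2.

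The proteins that bind the complex were read from a list of 15. Erythroid libraries were lower than endothelial ones in 7, or 46.7% beside 26.6% of all genes, and higher in 3, or 20.0% beside 14.4%, with a median of -1.89 against -0.36. Fli1 and Erg, ETS factors of endothelium and megakaryocytes, were at 0 in erythroid libraries and fell at least 291-fold and at least 56.5-fold against endothelial ones (adjusted p 1.68e-05 and 5.08e-04, edgeR). Cbfb, the partner of the RUNX factors, was at 24.9 to 30.9 CPM in endothelial and 27.5 and 30.2 CPM in double positive libraries and at 0 in every erythroid one. Tcf4, an E-protein partner of TAL1, fell by 7.04 (SE 0.52, adjusted p 1.40e-05). In double positive against endothelial libraries Fli1 and Tcf4 were the 2 partners that passed, at -2.30 (SE 0.35, adjusted p 0.00529) and -1.50 (SE 0.41, adjusted p 0.0304). That is 13.3% of the partners, beside 6.92% of all genes lower.

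The 3 partners that rose, named after their values were seen and in a share near that of all genes, were Ssbp2, Ssbp3 and Mafk. SSBP2 and SSBP3 shield LDB1 from breakdown, and MAFK is a small MAF partner of NFE2. Ssbp2 had 36.0, 16.1 and 21.7 CPM in endothelial, 78.1, 81.5 and 102 in erythroid libraries and 8.03 and 15.7 in the double positive ones, with no overlap of groups. Its difference was 1.82 (SE 0.37, adjusted p 0.00407) for erythroid minus endothelial, and that of Mafk was 2.14 (SE 0.56, adjusted p 0.0137). None of these 3 passed as higher by library size alone. Ssbp2, Ssbp3 and Mafk also fell in double positive against erythroid libraries, at -2.88, -1.29 and -2.26 on the log2 scale. So did Tcf3, another E-protein. Of the partners 26.7% were thus lower there, beside 10.6% of all genes, and 40.0% were higher, beside 31.5%.

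Corepressors and coactivators that the complex recruits were read from a list of 25. Erythroid libraries were higher than endothelial ones in 3, or 12% beside 14.4% of all genes, and lower in 2, or 8.0% beside 26.6%, with a median of -0.14 against -0.36. By library size alone 19 of the 25 were lower, as were 7270 of all 12136 genes. The CtBP genes, corepressors bound by FOG1, went opposite ways: Ctbp1 was higher in erythroid libraries by 1.43 (SE 0.28, adjusted p 0.00339) and Ctbp2 lower by 5.22, that is a log2 difference of -5.22 (SE 1.04, adjusted p 0.00370). Rbbp7, a histone-binding subunit of the NuRD complex, had 311, 338 and 276 CPM in endothelial, 385, 343 and 362 in erythroid libraries and 1560 and 1018 in the double positive ones. It was the 1 gene of the 25 higher in double positive than in endothelial libraries (2.06, SE 0.19, adjusted p 1.56e-04), or 4.0% beside 14.6% of all genes. Mta2, another NuRD subunit, was the 1 lower (-1.89, SE 0.32, adjusted p 0.00380), or 4.0% beside 6.92%. The visceral endoderm sum was high in the same libraries, and its part in the Rbbp7 level was not tested.

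Of 11 other regulators of red cell genes, 9 were tested and 4 were higher in erythroid than in endothelial libraries, or 44.4% beside 14.4% of all genes: E2f2, Ikzf1, Foxo3 and Stat5b. Foxo3 was at 0 in endothelial libraries and at 13.05, 10.5 and 0.326 CPM in erythroid ones, the last resting on 1 count (SE 1.87). E2f2, a cell cycle factor of late erythroblasts, had 1.85, 2.28 and 1.13 CPM in endothelial, 51.3, 40.0 and 54.5 in erythroid libraries and 3.25 and 5.10 in the double positive ones, and rose by 4.77 (SE 0.46, adjusted p 6.13e-05) in erythroid against endothelial libraries. Ikzf1 was 4.07 higher (SE 0.59, adjusted p 6.82e-04). With E2f2 and Klf13, it fell in double positive against erythroid libraries, which is 33.3% of those tested beside 10.6% of all genes.

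Known activated targets of GATA1 and KLF1 were read from a list of 21, of which 20 were tested; E2f2 is in this list too. All 20 were higher in erythroid than in endothelial libraries, beside 14.4% of all genes (median 13.20 against -0.36). In double positive against endothelial libraries 16 were higher, or 80.0% beside 14.6% (median 8.40 against 0.06). All 20 fell in double positive against erythroid libraries, beside 10.6% of all genes (median -3.96 against 0.71). Slc4a1 had 2163, 2347 and 2292 CPM in erythroid libraries and 68.1 and 84.4 in the double positive ones, with 1 of 3 endothelial libraries above 0. Dmtn, Epor and E2f2 did not pass between double positive and endothelial libraries, and Bcl2l1, a survival gene, was lower there. Bcl2l1 had 50.1, 44.3 and 28.1 CPM in endothelial, 219, 184 and 195 in erythroid libraries, while the double positive ones had 19.1 and 14.3, the order seen for Lyl1 and Lmo2.

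Genes that GATA1 is known to repress were 4, of which Gata2, Kit and Spi1 were tested, and Myb had 0 counts in every library. The 3 tested were at 0 in every erythroid library and passed as lower there than in endothelial libraries (adjusted p 0.00239, 0.00103 and 5.60e-04, edgeR). Of all genes tested, 26.6% were lower in that comparison. Kit, the stem cell factor receptor, had 28.4, 11.1 and 59.1 CPM in endothelial and 2.87 and 5.10 in double positive libraries. Spi1, the PU.1 factor of myeloid cells and itself a macrophage marker, had 35.8, 106 and 45.7 CPM in endothelial and 0 and 0.611 in double positive libraries, and replicate 2, its highest, also had the highest macrophage sum.

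**Figure D5:**
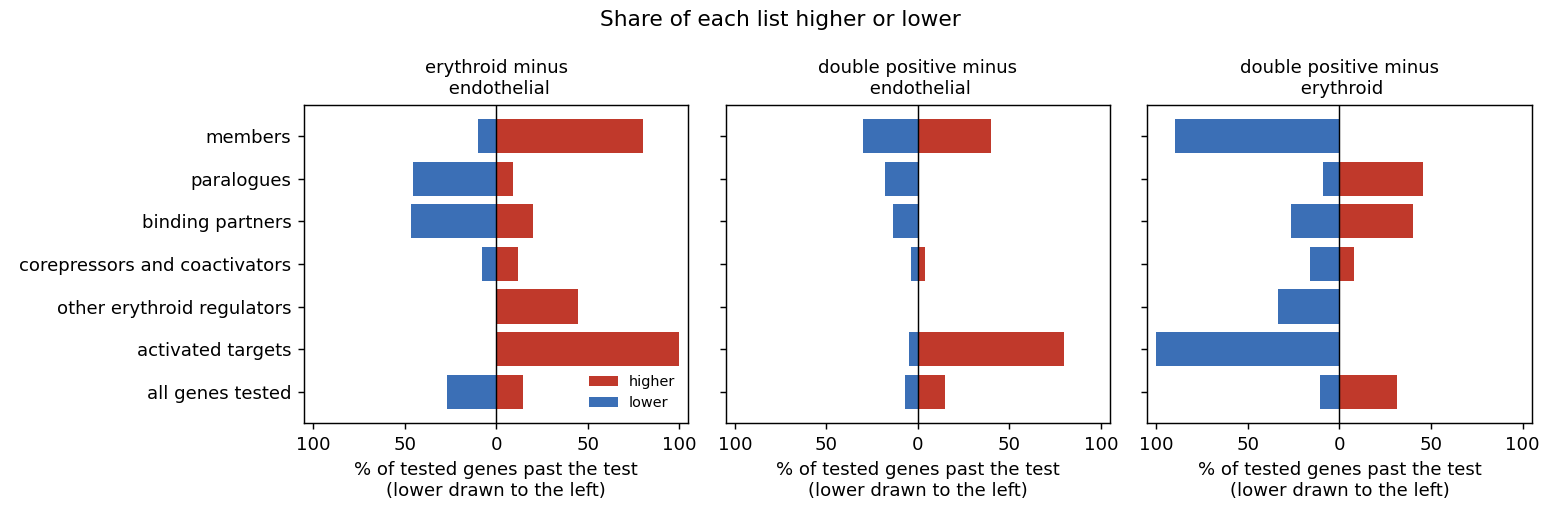
Share of the tested genes of each list that passed the test as higher (right) or lower (left) in each of the 3 comparisons, with all genes tested at the foot. The complex genes and the activated targets lie to the right in the erythroid minus endothelial panel and to the left in the double positive minus erythroid panel.

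Genes with the profile most like that of a complex gene over the 8 libraries were found by the root mean square difference of log2(CPM + 1) after each profile was centred, among 12135 other genes. Nearest to Gata1 were Lmx1a (0.16), Sptb (0.18) and Mir144 (0.27), the last at the locus that carries the GFP of the gates. Nearest to Klf1 were Kel (0.19), Cited4 (0.31) and Epb42 (0.33), and nearest to Tal1 were Pigq (0.23), Cdc42ep3 (0.23) and Tmcc2 (0.42). Lyl1, with its low double positive level, was nearest to Gypc (0.27), Slc29a1 (0.29) and Lpcat1 (0.29). Sptb encodes erythroid beta spectrin, and it averaged 0 CPM in endothelial, 272 ± 26.7 CPM in erythroid and 11.6 ± 0.663 CPM in double positive libraries. Gypc encodes glycophorin C and averaged 126 ± 24.9, 452 ± 11.8 and 42.1 ± 12.8 CPM. The 8 points of each profile come from 3 populations, so these values chiefly describe the group means.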

How the data were processed

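RNA was measured in 8 libraries: 3 endothelial, 3 erythroid and 2 double positive. Per the labels, polyadenylated RNA was amplified by Smart-seq2 with 14 PCR cycles. The deposited values are raw read counts per gene. FastQC, HTSeq and mm10 are named in the submitters' processing notes; not given in the sources used here are the aligner, annotation, versions and strand setting. PCR duplicates and 24 or 25 cells a pool limit the precision of low counts.

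In R 4.3.3, edgeR 4.0.16 fitted 1 mean per population to all 8 libraries (quasi-likelihood, robust, TMM factors, filterByExpr with a minimum count of 10, 12136 genes). Two-sided p-values were adjusted by Benjamini-Hochberg, with a threshold of 0.05. Normalised read counts (CPM) use TMM-scaled library sizes, and exon lengths and positions are from GENCODE M21. The fit was tested on simulated data. The alternatives were DESeq2 1.42.0, limma-voom (limma 3.58.1), RLE factors, library size alone, globin or globin and visceral endoderm genes left out of the factors, other count filters, 2 populations alone, and each library left out. Tables were made in python 3.11.15 with pandas 2.3.3.

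The 10 genes, the 13 lists and the tests were chosen with earlier results of these data known. Text names all 10 genes, the relatives paired with them, up to 4 genes per list and comparison by adjusted p, and the 3 genes nearest in profile to Gata1, Klf1, Tal1 and Lyl1. Mast cell markers (at most 7.26 CPM summed) were also summed.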

Additional observations from a re-analysis of the deposited data

How the results depend on the processing

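Of 510 values of single genes under 17 alternatives, 477 kept their direction and side of the threshold, 20 no longer passed, 7 newly passed and 6 turned sign. By library size alone, which moved the median of all genes from -0.36 to -1.90 (erythroid minus endothelial), 0.06 to -0.57 (double positive minus endothelial) and 0.71 to 1.61 (double positive minus erythroid), the calls over all genes were 420 higher and 7270 lower, 1118 and 1901, and 5760 and 473; 2 complex genes were then lower in erythroid libraries, and the log2 differences that turned were Ldb1 -1.32 and Lyl1 -0.12 (erythroid minus endothelial), Tal1 -0.05 (double positive minus endothelial) and Cbfa2t3 0.60 (double positive minus erythroid). For double positive minus endothelial, DESeq2 gave 1415 lower genes and the 2 populations alone 1422, with 2 complex genes higher in the latter; DESeq2 put 340 genes under both populations. Leaving out 1 library gave 0 to 1 complex genes lower in erythroid libraries; for double positive minus endothelial 696 to 1854 genes higher and 219 to 1038 lower, with 3 to 4 complex genes higher and 1 to 4 lower; for double positive minus erythroid 2315 to 3845 higher and 609 to 1348 lower, with 7 to 9 complex genes lower. Genes under both populations then numbered 43 to 206, and 1 to 3 of the 10. Fewer samples were fitted there, and where 1 double positive library was left it was assumed to vary like the other groups. Other signs that turned did so when 1 library was left out, over these ranges: Zfpm1 -0.80 to 0.41 (double positive minus endothelial; 0.41 without replicate 3); for double positive minus erythroid, Cbfa2t3 -0.69 to 0.19 (0.19 without replicate 6), its ratio to Cbfa2t2 -0.14 to 1.5 (-0.14 without replicate 8, 0.00 without 5) and Lmo2 per globin -0.02 to 0.42 (-0.02 without replicate 7); per Cdh5 count, Ldb1 -0.32 to 0.01 (0.00 without replicate 8, 0.01 without 3) and Lyl1 -0.32 to 0.11 (0.11 without replicate 2). With 10 endothelial markers in place of Cdh5, the log2 ratios were 1.62 for Lmo2, 0.80 for Ldb1, 0.84 for Lyl1 and 0.74 for Cbfa2t3. The cause was not tested unless stated. No paired analysis was possible because the labels number the pools 1 to 8 and no number is shared between groups. Genes under about 5 CPM, such as Zfpm1 and Cbfa2t3 outside their highest group, rest on few counts.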
